A study of Rattus norvegicus with 2 samples.

Results

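The genes described here are 10 members of the prostaglandin and phospholipase A2 pathway, taken by symbol: *Pla2g2a*, *Pla2g4a*, *Ptgs1*, *Ptgs2*, *Ptges*, *Ptgis*, *Ptgds*, *Ptger2*, *Ptger4* and *Alox5ap*. Of these, 9 were in the list of 25399 genes that were counted, and *Ptgis* was not analysed here. Cardiac cells of neonatal Sprague-Dawley rats (1 to 3 days old, pooled male and female) were enriched for intrinsic cardiac adrenergic (ICA) cells on a Percoll gradient and cultured with saline (control) or with 1 µg/mL lipopolysaccharide (LPS) for 2 h. Each condition gave 1 library of the 10X Genomics single-cell 3′ kind, from rats with no named mutation or transgene. The control library held 11531 cells and 152624585 unique molecular identifiers (UMIs, counted RNA molecules), and the LPS library 12689 cells and 127580475 UMIs.

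Phospholipases A2 free arachidonic acid and other fatty acids from membrane phospholipids. The cyclooxygenases *Ptgs1* (COX-1) and *Ptgs2* (COX-2) turn arachidonic acid into prostaglandin H2, from which terminal synthases make the individual prostanoids: *Ptges* makes prostaglandin E2 and *Ptgds* prostaglandin D2. Prostaglandin E2 acts through G-protein-coupled receptors, among them EP2 (*Ptger2*) and EP4 (*Ptger4*), both of which raise cyclic AMP. *Alox5ap* encodes the protein that presents arachidonic acid to 5-lipoxygenase, at the head of the leukotriene branch. In inflamed tissue *Ptgs2* and *Ptges* are known as inducible genes and *Ptgs1* as the constitutive cyclooxygenase.

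Levels are given as UMIs per 1000000 UMIs of a cluster and library (CPM), summed over cells. Clusters and cell types were those of the deposited cell table: clusters 0, 1 and 7 were named Fibroblast, cluster 3 ICA and Cardiomyocyte, clusters 4 and 5 Endothelial and cluster 6 Macrophages, while clusters 2, 8, 9 and 10 had no name. Cluster 0 held 6600 control and 7030 LPS cells, and cluster 6 held 281 and 291. Cluster 10, with 16 and 26 cells, was not compared. With no replicates there was no test. The 95% intervals in parentheses reflect the counting of UMIs alone, and whatever differed in how the libraries were handled is part of every ratio. A gene was called higher or lower where its level differed at least 2-fold with at least 20 UMIs over both libraries. Clusters were made by the submitters from the same counts, so differences between clusters are given as a description.

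The names of the main clusters were set against marker genes. Of 10 fibroblast markers all were detected in cluster 0, with a summed level of 12015 CPM in control and 10949 CPM in LPS cells. The 12 macrophage markers summed to 5680 and 3805 CPM in cluster 6, and to between 10.1 and 59.1 CPM in clusters 0 to 5, with *Cd163* at 0 UMIs in the LPS macrophages. Cluster 3 carried 7 cardiomyocyte markers at 7015 and 7408 CPM. Of the 4 ICA markers, 3 were detected there, at 75.2 and 81.9 CPM in sum. Among these *Pnmt* had only 1 UMI in each library, so the sum is nearly all *Dbh* and *Ddc*. *Th*, which encodes tyrosine hydroxylase, was at 0 UMIs in cluster 3 of both libraries. The samples are labelled as ICA cells, whereas most cells fell into clusters named for fibroblasts. Fibroblast markers were also counted in every other cluster: in clusters 2 to 6 they summed to between 2249 and 5654 CPM. The libraries shared 194 cell barcodes, 1.68% of control and 1.53% of the LPS cells. In macrophages the median gene with at least 50 UMIs had a log2 ratio of -0.31 between the LPS and control libraries, in cluster 0 -0.13 and in cluster 2 -0.12, and in the other clusters compared it was within 0.1 of 0.

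The promoter windows of 3 genes are shown because these genes were higher in the LPS library in nearly every cluster. The windows come from RefSeq (build GRCr8, 250 bases before to 50 after the gene start) and were found for 8 of the 10 genes, those missing being *Ptgis* and *Alox5ap*. Capitals mark matches on either strand to 6 searched motifs. These were the E-box (letters CACGTG), the C/EBP motif (letters TTNNGCAA), the AP-1 motif (letters TGANTCA), the TATA box (letters TATAAA), the Egr motif (letters GCGNGGGCG) and the kappaB motif. A GC box (letters GGGCGG) and a CRE half-site (letters CGTCA) were searched too and are not marked. No match in the shown windows shared bases with another.
Ptgs2 promoter (chr13:64713813-64714112, strand +): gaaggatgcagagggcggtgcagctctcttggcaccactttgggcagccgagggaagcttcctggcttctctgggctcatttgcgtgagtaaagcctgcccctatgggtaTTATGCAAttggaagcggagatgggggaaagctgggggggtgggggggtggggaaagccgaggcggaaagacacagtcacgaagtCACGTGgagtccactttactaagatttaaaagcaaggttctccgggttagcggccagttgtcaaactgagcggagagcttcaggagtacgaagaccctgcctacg
Ptges promoter (chr3:34586938-34587237, strand -): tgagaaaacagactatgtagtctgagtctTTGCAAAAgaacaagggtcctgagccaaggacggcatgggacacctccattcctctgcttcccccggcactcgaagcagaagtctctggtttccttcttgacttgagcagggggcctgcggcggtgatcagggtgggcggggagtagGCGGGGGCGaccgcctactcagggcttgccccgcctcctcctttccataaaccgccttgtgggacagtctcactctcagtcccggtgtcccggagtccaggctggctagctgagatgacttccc
Pla2g2a promoter (chr5:156359475-156359774, strand +): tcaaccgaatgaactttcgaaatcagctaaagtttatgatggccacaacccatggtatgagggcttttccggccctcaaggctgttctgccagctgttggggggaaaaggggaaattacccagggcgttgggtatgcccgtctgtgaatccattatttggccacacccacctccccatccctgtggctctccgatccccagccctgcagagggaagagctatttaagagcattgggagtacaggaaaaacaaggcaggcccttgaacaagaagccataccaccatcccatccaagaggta
The *Ptgs2* window held an E-box starting 55 bases before the gene start and a C/EBP match, TTATGCAA, 140 bases before it. The *Ptges* window held an Egr match, GCGGGGGCG, 74 bases before the start and a C/EBP match on the other strand 221 bases before it. Both also held a GC box, and no searched motif was matched in the *Pla2g2a* window. Of 33469 promoter windows of the same length, 6.42% held the E-box, 10.6% the C/EBP motif, 4.98% the Egr motif, 7.33% the AP-1 motif, 4.18% the kappaB motif, 14.2% the TATA box, 21.2% the CRE half-site and 33.1% the GC box, so such matches occur in many promoters, and a match of letters says nothing of binding. *Pla2g4a* and *Ptgs2* are neighbouring protein-coding genes on chromosome 13 in the RefSeq annotation.

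In the fibroblasts of cluster 0, 4 of the 9 genes were higher in the LPS library (*Pla2g2a*, *Pla2g4a*, *Ptgs2* and *Ptges*) and 2 were lower (*Ptger4* and *Alox5ap*), where 3.64% of the 13447 genes compared were higher and 11.5% lower. In the macrophages of cluster 6, 4 of the 7 genes with enough UMIs were higher (*Pla2g2a*, *Ptgs2*, *Ptges* and *Ptger2*) and 1 was lower (*Ptgs1*), beside 4.73% higher and 16.2% lower of 8401 genes. The median log2 ratio of the genes compared was 0.57 in cluster 0 against -0.15 over all genes, and 1.19 in cluster 6 against -0.35 over all genes. With so few genes each median is the value of a single gene. In cluster 0 it is that of *Ptger2*, from 19 and 23 UMIs, with a ratio interval that held 1 (0.774 to 2.88). In cluster 6 it is that of *Pla2g2a*, whose level there was within the range of the fibroblast markers. In cluster 3, 3 of 6 were higher and 0 lower, with 2.27% higher and 3.29% lower over 9943 genes. With LPS, these genes (*Pla2g2a*, *Ptgs2* and *Ptges*) were at 23.4%, 44.1% and 22.1% of their cluster 0 levels. The fibroblast markers there lay between 15.9% and 53.2%, so these calls cannot be told apart from fibroblast RNA. In clusters 2 and 4 the same genes lay, with LPS, within the marker range or at its upper edge. In control *Ptgs2* of cluster 4 was above it, at 59.8% (38.2 to 89.8) against at most 34.1%. In the endothelial cells 3 of 6 were higher and 0 lower in cluster 4 (background 3.03% and 6.6%), and 3 of 5 were higher and *Ptgs1* lower in cluster 5 (background 4.86% and 6.74%). *Pla2g2a*, *Ptgs2* and *Ptges* were the genes called higher in each of clusters 1 to 5 and 7, where the background of higher genes was 3.39% in cluster 1, 3.06% in cluster 2 and 5.17% in cluster 7. No gene was lower in cluster 2 (background 7.07%) or cluster 7 (6.79%). In cluster 8 *Pla2g4a*, *Ptgs2* and *Ptges* were higher (background 3.58%), and in cluster 9 *Ptgs2* and *Ptges* (background 5.2%), with 0 lower in either (background 4.38% and 5.41%). *Alox5ap* was lower in cluster 1, against 7.58% of all genes there.

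**Figure D1:**
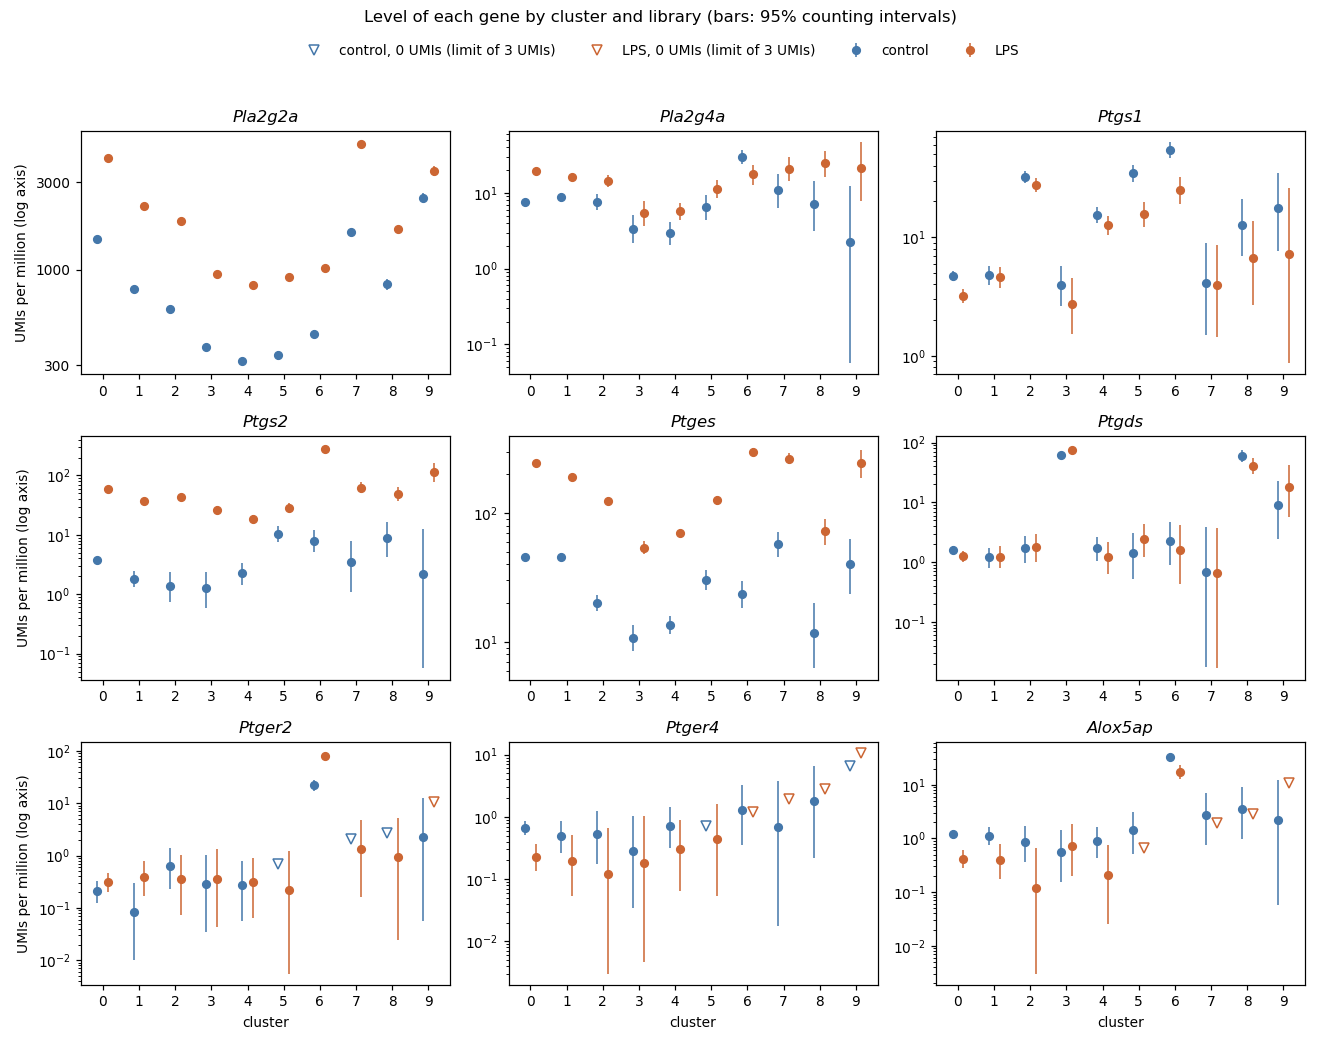
Level of each of the 9 genes (UMIs per 1000000 UMIs of the cluster, log axis) in clusters 0 to 9, with blue points for the control and orange points for the LPS library; bars are 95% Poisson intervals and open triangles mark the limit of 3 UMIs where a cluster had 0 UMIs. *Ptgs2* and *Ptges* lie higher in the LPS library in all 10 clusters, while *Ptger2* stands out in cluster 6 and *Ptgds* in clusters 3 and 8.

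*Pla2g2a* (ENSRNOG00000016945) encodes the secreted group IIA phospholipase A2, an acute-phase enzyme that also attacks bacterial membranes. In cluster 0 it gave 133468 UMIs in control and 300213 UMIs in the LPS library, levels of 1475 and 4070 CPM. The LPS level was 2.76 times the control level (2.74 to 2.78). Cluster 7, a small fibroblast cluster of 104 and 144 cells, had the highest LPS level, 4835 CPM against 1604 CPM in control, a ratio of 3.01 (2.88 to 3.16). Cluster 9 had the highest control level, 2469 CPM against 3447 CPM with LPS, a ratio of 1.40 (1.28 to 1.52). Its fibroblast markers summed to 17692 CPM in control and 14672 CPM with LPS, the highest of all clusters. In that cluster 75.7% of the control UMIs lay in the top 10% of cells after thinning, so a few cells set its control level, and without cells over 10% mitochondrial UMIs its log2 ratio was 1.17 in place of 0.48. The ratio was 2.85 (2.80 to 2.90) in cluster 1 and 3.00 (2.91 to 3.09) in cluster 2. In cluster 8 it was 2.00 (1.84 to 2.17), just under the 2-fold limit before rounding.

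Between single fibroblasts *Pla2g2a* varied widely. After each cell of cluster 0 was thinned at random to 3000 UMIs, the median cell held 2 *Pla2g2a* UMIs in control and 6 with LPS, and the mean cell 4.49 and 12.3. The cell at the 90th percentile held 12 UMIs in control and 31 with LPS, and the highest cell 113 and 210. The 10% of cells with the most *Pla2g2a* held 52.4% of its UMIs in control and 40.0% in the LPS library. Cells without any *Pla2g2a* UMI made up 25.1% of control and 4.31% of the LPS cells, and cells with at least 50 UMIs 0.50% and 3.57%. The counts per cell were thus higher in the LPS library at the low end as well as the high end. In macrophages the mean thinned cell held 1.01 *Pla2g2a* UMIs in control and 2.42 with LPS. The part of RNA free in the fluid in the low counts of cluster 0 was not tested. Thinning left out 79 LPS cells of all clusters and no control cell.

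**Figure D2:**
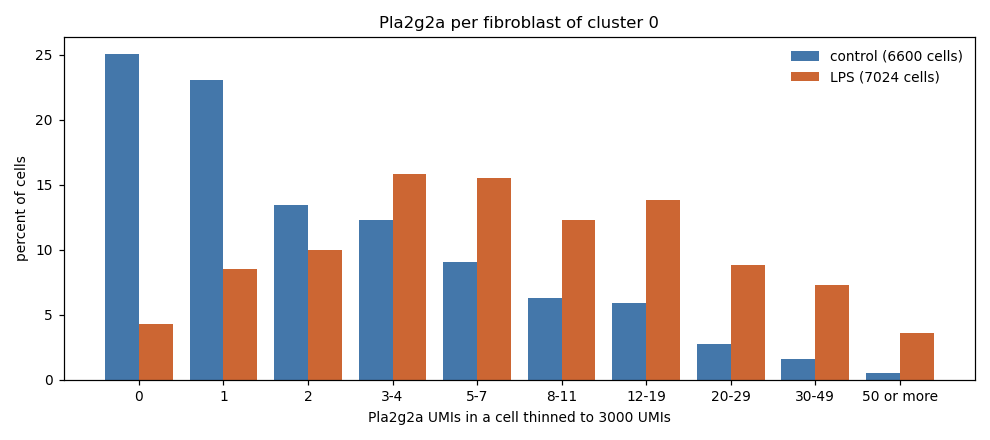
Share of the cells of cluster 0 (percent, vertical axis) by the number of *Pla2g2a* UMIs left in a cell after thinning to 3000 UMIs (horizontal axis), for 6600 control and 7024 LPS cells. Cells with 0 UMIs make up 25.1% of control and 4.31% of LPS cells, and every class from 3 UMIs up holds a larger share of the LPS cells.

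In clusters without fibroblast names *Pla2g2a* lay at the level at which fibroblast markers were found there. In the LPS library its level in macrophages was 25.0% of that in cluster 0 (24.0 to 26.0), while the 10 fibroblast markers lay between 19.7% and 35.8% there, with a median of 28.1%. In cluster 3 it was at 23.4% of the cluster 0 level (markers 15.9% to 53.2%). Cluster 4 gave 20.3% (markers 16.7% to 30.8%) and cluster 5 gave 22.5% (markers 17.0% to 43.8%). The level in cluster 2 was 45.2% of that in cluster 0 (markers 19.0% to 77.7%). RNA free in the fluid can give a droplet UMIs of a gene its cell does not express, and for *Pla2g2a* in these 5 clusters the values are within the range of the fibroblast markers. Its ratios between the libraries were 2.29 (2.14 to 2.44) in macrophages, 2.52 in cluster 3 and 2.58 in cluster 4. They were 2.69 in cluster 5 and 3.00 in cluster 2. Only the interval of cluster 5 (2.53 to 2.86) overlapped with that of cluster 0 (2.74 to 2.78). In cluster 2 *Pla2g2a* was at 41.6% of the cluster 0 level in control, while the summed fibroblast markers were at 47.1% in control and 39.3% with LPS. The part of fibroblast RNA in these ratios was not tested. In macrophages the ratio also went below 2-fold, to a log2 ratio of 0.88, without the 8% of cells with the highest doublet scores. Cluster 0 held 77.8% of all *Pla2g2a* UMIs in control and 76.8% with LPS, at 59.3% and 57.8% of all UMIs.

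**Figure D3:**
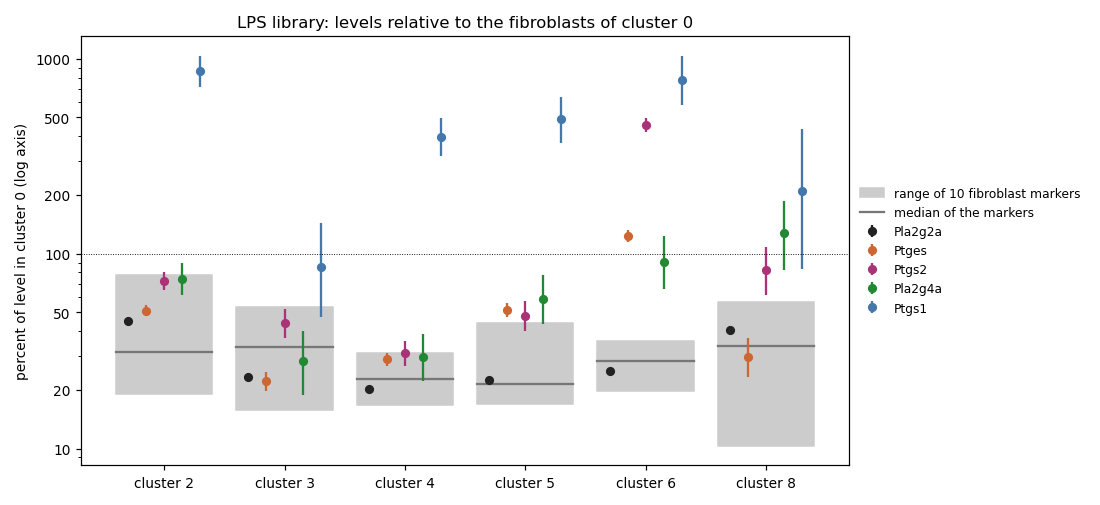
Level of 5 genes in the LPS library in 6 clusters, as a percent of the level in the fibroblasts of cluster 0 (log axis, bars are 95% intervals); grey boxes span 10 fibroblast markers and grey lines give their median. *Pla2g2a* lies inside the grey box in each cluster, whereas *Ptgs2* at 457% and *Ptges* at 123% lie above it in cluster 6.

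*Pla2g4a* (ENSRNOG00000002657) encodes the cytosolic phospholipase A2 that releases arachidonic acid inside cells. In cluster 0 it had 692 UMIs in control and 1438 UMIs in the LPS library, or 7.65 and 19.5 CPM, a ratio of 2.55 (2.33 to 2.80). In macrophages the order was the other way round, with 93 control and 44 LPS UMIs, or 29.9 and 17.7 CPM, a ratio of 0.593 (0.404 to 0.857) that did not reach 2-fold. Control macrophages were at 391% of the cluster 0 level and LPS macrophages at 90.8%. The fibroblasts of cluster 1 had a ratio of 1.83 (1.54 to 2.19) and cluster 2 one of 1.89 (1.40 to 2.56). The endothelial cells of clusters 4 and 5 had ratios of 1.94 (1.24 to 3.08) and 1.73 (1.08 to 2.85). All these ratios were under 2-fold, with intervals that lay above 1 and reached past 2-fold. In cluster 4 the log2 ratio was 0.28 in place of 0.96 without the 8% of cells with the highest doublet scores. With LPS, *Pla2g4a* in cluster 2 was at 74.5% of the cluster 0 level (fibroblast markers 19.0% to 77.7%). Cluster 4 was at 29.5% (markers 16.7% to 30.8%). In control *Pla2g4a* was at 100.5% (77.7 to 128.3) in cluster 2, above the highest marker there at 76.9%. In cluster 4 of the control library it was at 38.8% (26.5 to 55.0), with the highest marker at 34.1%. The part of fibroblast RNA in the ratios of these 2 clusters was not tested. With LPS, cluster 5 was at 58.6%, above its highest marker at 43.8%. Cluster 8 rested on 8 control and 26 LPS UMIs, with a ratio of 3.44 (1.51 to 8.79). Cluster 3, with 24 and 30 UMIs, had an interval that held 1 (0.912 to 2.89). After thinning, 2.24% of control and 5.64% of the LPS cells of cluster 0 had a *Pla2g4a* UMI. Of the macrophages, 7.12% (4.40 to 10.8) in control and 4.83% (2.66 to 7.97) with LPS had one, intervals that overlap. Unthinned, the macrophage shares were 26.7% and 13.7%.

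*Ptgs2* (ENSRNOG00000002525) had the largest ratios of the 9 genes in 8 of the 10 clusters compared, the exceptions being clusters 5 and 8, where *Ptges* had the larger one. In cluster 0 it went from 340 UMIs (3.76 CPM) in control to 4425 UMIs (60.0 CPM) in the LPS library, a ratio of 16.0 (14.3 to 17.9). In macrophages the counts were 25 and 681 UMIs, or 8.03 and 274 CPM, a ratio of 34.1 (22.9 to 53.1). The control count of macrophages rests on few cells: without the 1% of cells with the most *Ptgs2* the log2 ratio was 6.08 in place of 5.09. In clusters 2, 3, 4 and 7, with 13, 9, 25 and 5 control UMIs, the same filter gave 6.76, 5.42, 4.07 and 5.27. It removes much or all of so small a control count, and a count of 0 is set to 3 UMIs. These values are therefore no measure of the ratio. Cluster 1 had a ratio of 20.3 (15.0 to 28.2). In cluster 2 the ratio was 31.4 (18.1 to 59.5) from 13 and 366 UMIs, and in cluster 3 it was 20.8 (10.7 to 46.4) from 9 and 145 UMIs. Both endothelial clusters had smaller ratios than the fibroblasts and macrophages: cluster 4 went from 25 to 180 UMIs, a ratio of 8.23 (5.40 to 13.1), and cluster 5 from 44 to 131 UMIs, a ratio of 2.78 (1.96 to 4.01). Endothelial cluster 5 had the highest control level, 10.4 CPM (7.52 to 13.9), next to cluster 8 (4.31 to 16.5) and macrophages (5.19 to 11.8), whose intervals overlap with it. Without the 8% of cells with the highest doublet scores the log2 ratio in cluster 5 was 0.95, no longer 2-fold. Cluster 7 went from 5 to 95 UMIs, a ratio of 18.2 (7.55 to 57.5), and cluster 8 from 10 to 52, a ratio of 5.51 (2.77 to 12.2). Cluster 9 went from 1 to 32 UMIs, a ratio of 51.5 (8.60 to 2096.5) with a log2 value of 5.69. Leaving out the 1% of cells with the most *Ptgs2* removed its only control UMI, so the resulting 3.79 rests on the limit of 3 UMIs.

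Among the LPS cells, macrophages had 457% (421 to 495) of the *Ptgs2* level of cluster 0, where the fibroblast markers reached at most 35.8%. They held 9.92% of the *Ptgs2* UMIs of the LPS library with 1.95% of all UMIs, and cluster 0 held 64.5%. In endothelial cluster 4 the level was 30.8% of that of cluster 0, next to the highest marker at 30.8%, and in cluster 3 it was 44.1%, within the marker range. Cluster 2 was at 72.6%, within its own marker range and above its median marker at 31.4%. Cluster 5 was at 48.0% (40.0 to 57.1) against a highest marker of 43.8%. In the control library, cluster 4 was at 59.8% (38.2 to 89.8) of the cluster 0 level, above its highest marker at 34.1%. After thinning, 34.1% (28.7 to 39.9) of the LPS macrophages had a *Ptgs2* UMI against 2.49% of the control ones. In cluster 0 the shares were 15.2% and 1.05%. In cluster 3 they were 4.54% and 0.120%. Unthinned shares were 52.2% and 4.27% in macrophages, where the median LPS and control cell held 6900 and 8846 UMIs, and 36.5% and 4.21% in cluster 0, where it held 9821.5 and 12968.

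*Ptgs1* (ENSRNOG00000007415) had no ratio above 1 in any cluster compared, although the log2 ratio of -0.05 in cluster 1 became 0.01 relative to the median gene and 0.01 without the 5% of cells with the most UMIs. In cluster 3, with 28 and 15 UMIs, the log2 ratio of -0.53 became 0.06 without cells over 10% mitochondrial UMIs and -1.72 without the 1% of cells with the most *Ptgs1*. In control its level was highest in macrophages, and with LPS in cluster 2, where the interval (24.1 to 31.3 CPM) overlapped with that of macrophages (19.1 to 32.0 CPM). Macrophages had 169 UMIs (54.3 CPM) in control and 62 UMIs (24.9 CPM) in the LPS library, a ratio of 0.460 (0.338 to 0.618). Relative to the median gene of macrophages, which was also lower, the log2 ratio was -0.81 and not past 2-fold. In endothelial cluster 5 it went from 147 UMIs (34.6 CPM) to 71 UMIs (15.6 CPM), a ratio of 0.451 (0.335 to 0.603). The other endothelial cluster, cluster 4, had 15.5 and 12.6 CPM, a ratio of 0.817 (0.643 to 1.04). Cluster 2, where mural markers summed to 1233 and 983 CPM, had 302 and 231 UMIs, or 32.2 and 27.5 CPM, with a ratio of 0.853 (0.715 to 1.02). In cluster 0 the level was low, 4.75 CPM in control and 3.20 CPM with LPS, a ratio of 0.673 (0.572 to 0.791). Among clusters 0 to 6 the order in control was macrophages, cluster 5, cluster 2 and cluster 4, where clusters 5 and 2 had overlapping intervals (29.2 to 40.7 and 28.7 to 36.1 CPM).

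After thinning, 17.1% (12.9 to 22.0) of control and 6.21% (3.72 to 9.63) of the LPS macrophages had a *Ptgs1* UMI. Unthinned, the shares were 38.4% and 16.5%. In cluster 0 the thinned shares were 1.33% and 0.911%. *Ptgs1* is also known from platelets. In macrophages *Ppbp* and *Gp9*, which mark platelets, had 3 and 1 UMIs in control and 1 each with LPS, whereas *Pf4*, which macrophages can also express, had 2999 and 3601 CPM.

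**Figure D4:**
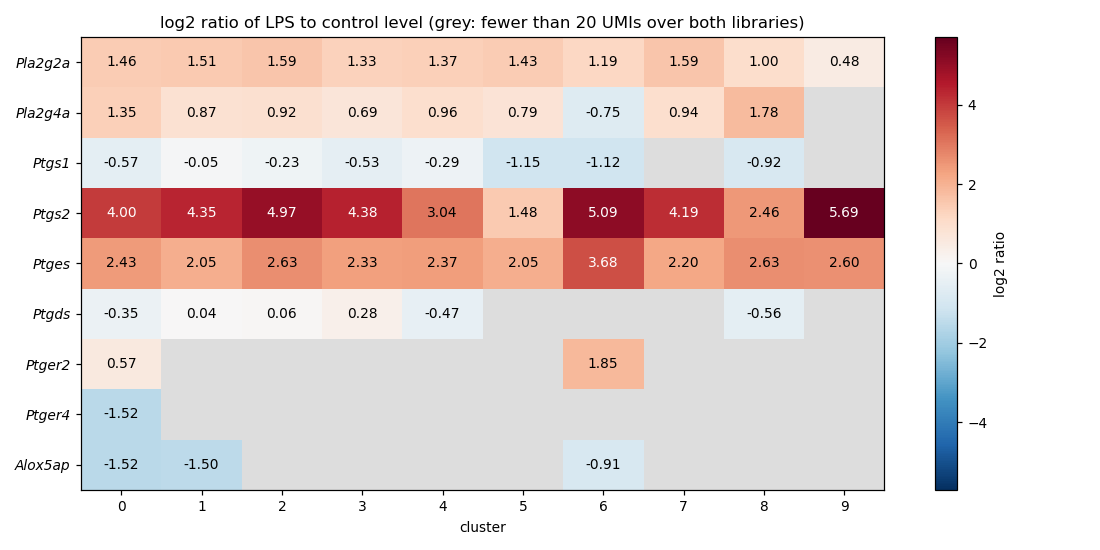
The log2 ratio of the LPS to the control level for each gene (rows) in clusters 0 to 9 (columns), red where the LPS level was higher and blue where it was lower; grey cells had fewer than 20 UMIs over both libraries. The *Ptgs2* and *Ptges* rows are red throughout, and of the clusters with enough UMIs *Pla2g4a* is blue only in cluster 6 (-0.75).

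*Ptges* (ENSRNOG00000006320) encodes microsomal prostaglandin E synthase-1, which works downstream of COX-2. In cluster 0 it went from 4117 UMIs (45.5 CPM) in control to 18040 UMIs (245 CPM) in the LPS library, a ratio of 5.38 (5.20 to 5.56). Macrophages had 73 UMIs (23.4 CPM) in control and 747 UMIs (300.5 CPM) with LPS, a ratio of 12.8 (10.1 to 16.5). The order of the clusters thereby changed between the libraries: control macrophages were at 51.5% (40.3 to 64.9) of the cluster 0 level and LPS macrophages at 123% (114 to 132). In the other 8 clusters compared the ratio ran from 4.14 in cluster 1 to 6.19 in cluster 8. Cluster 9 was within this range at 6.08, but its log2 ratio of 2.60 was 3.82 without cells over 10% mitochondrial UMIs. It turned to -0.54 in an own clustering, whose matching class held 26 cells. Only 16 of these were among the 124 cells of cluster 9, and the others had no deposited cluster. The LPS level in cluster 5 was 51.5% (47.3 to 55.9) of that of cluster 0, above the 43.8% of the highest fibroblast marker. In clusters 2, 3, 4 and 8 it was at 51.0%, 22.1%, 28.6% and 29.6%, within the range of the markers. The ratio in these 4 clusters therefore cannot be told apart from that of fibroblast RNA. After thinning, a *Ptges* UMI was seen in 11.1% of control and 44.2% of the LPS cells of cluster 0, and in 3.91% and 43.8% of the macrophages. Unthinned, the shares were 37.8% and 74.4% in cluster 0 and 17.1% and 58.1% in macrophages.

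Co-detection of the enzymes was looked at in single LPS cells thinned to 3000 UMIs. In cluster 0, 48.8% (45.7 to 51.8) of the 1068 cells with a *Ptgs2* UMI also had a *Ptges* UMI, against 43.3% (42.1 to 44.6) of the 5956 cells without one. Of the 396 cells with a *Pla2g4a* UMI 54.3% (49.2 to 59.3) had a *Ptges* UMI, against 43.6% (42.4 to 44.8) of the rest. In LPS macrophages 48.5% (38.3 to 58.7) of the 99 cells with *Ptgs2* had *Ptges*, against 41.4% (34.3 to 48.7) of the 191 without. The intervals are apart for both pairs in cluster 0 and overlap in macrophages. In cluster 0 they were also apart for *Ptges* with and without *Pla2g2a*, 44.6% (43.4 to 45.8) against 34.7% (29.3 to 40.3). They overlapped for *Ptgs2* with and without *Pla2g4a*, 18.2% (14.5 to 22.3) against 15.0% (14.2 to 15.9). For *Pla2g2a* with and without *Ptgs2* or *Pla2g4a* they overlapped too. In control cells of cluster 0 both of the first pairs overlapped. These cells come from 1 library, so the shares are a description.

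*Ptgds* (ENSRNOG00000015550) encodes the lipocalin-type prostaglandin D synthase. It was found mainly in cluster 3, which held 59.9% of its UMIs in control and 66.2% with LPS. The counts there were 439 and 412 UMIs, or 62.0 and 75.2 CPM, a ratio of 1.21 (1.06 to 1.39), under 2-fold. Cluster 8, where mesothelial markers summed to 594 and 642 CPM, had 67 and 43 UMIs, or 60.3 and 41.0 CPM, a ratio of 0.680 (0.452 to 1.01). In the other clusters with at least 50 cells in each library the level was between 0.658 and 17.9 CPM. After thinning, 16.1% of control and 20.3% of the LPS cells of cluster 3 had a *Ptgds* UMI, against 0.545% and 0.356% in cluster 0. Unthinned, the shares were 33.9% and 31.3%, the opposite order, with 7526 and 5269 UMIs in the median cell.

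Within cluster 3, cells with a *Ptgds* UMI (283 control and 291 LPS cells) were set beside those without one (553 and 638). The fibroblast markers summed to less in the cells with *Ptgds*, 3529 against 4129 CPM in control and 2771 against 3848 CPM with LPS. All 10 of them were lower there in both libraries, 4 in control and 6 with LPS with intervals apart, such as *Postn*, which encodes the matrix protein periostin, at 397 against 481 CPM in control and 337 against 571 CPM with LPS. The 7 cardiomyocyte markers summed to more, 7240 against 6895 CPM in control and 7990 against 7132 CPM with LPS. Of these, 5 were higher in control, 1 with intervals apart, and 6 with LPS, 3 with intervals apart. *Tnnt2*, cardiac troponin T, was at 4241 against 3926 CPM in control and at 4805 against 4219 CPM with LPS. The ICA markers summed to 77.2 and 74.1 CPM in control and to 82.8 and 81.5 CPM with LPS, and of the 4 none had intervals apart. *Dbh*, which encodes the enzyme that makes norepinephrine, was at 23.9 and 26.3 CPM in control and at 23.8 and 25.3 CPM with LPS. Cells with a *Ptgds* UMI were also deeper, with a median of 8054 against 7307 UMIs in control and 5477 against 5133 UMIs with LPS, and the part of depth in these differences was not tested. The intervals count UMIs pooled over cells and leave out the spread between cells, so intervals that are apart are a description. These genes were compared after the *Ptgds* pattern was seen.

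*Ptger2* (ENSRNOG00000050968), the EP2 receptor, was counted mainly in macrophages, which held 67.6% of its UMIs in control and 82.2% with LPS. They had 69 UMIs (22.2 CPM) in control and 199 UMIs (80.1 CPM) in the LPS library, a ratio of 3.61 (2.74 to 4.82). In cluster 0, with far more cells, it had 19 and 23 UMIs, or 0.210 and 0.312 CPM. These are 0.948% and 0.390% of the macrophage levels, within the range of the macrophage markers in cluster 0 (0.409% to 1.35% in control and 0.204% to 1.01% with LPS). After thinning, 8.54% (5.55 to 12.4) of control and 24.1% (19.3 to 29.5) of the LPS macrophages had a *Ptger2* UMI, against 0.0909% and 0.0854% of the cells of cluster 0. Unthinned, 21.4% and 45.4% of the macrophages had one.

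*Ptger4* (ENSRNOG00000013240), the EP4 receptor, was rare, with 94 control and 28 LPS UMIs over all cells, a ratio of 0.356 (0.225 to 0.548). In cluster 0 it had 60 and 17 UMIs, or 0.663 and 0.230 CPM, a ratio of 0.348 (0.190 to 0.604). That cluster held 63.8% of its UMIs in control and 60.7% with LPS, close to its 59.3% and 57.8% of all UMIs. The gene was thus not concentrated in the fibroblasts. Macrophages had 4 UMIs in control and 0 with LPS, which allows up to 1.21 CPM there (3 UMIs). The thinned shares in cluster 0 were 0.182% (0.0940 to 0.317) and 0.114% (0.0492 to 0.224), with overlapping intervals. No other cluster reached 20 UMIs.

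*Alox5ap* (ENSRNOG00000000907) had 101 UMIs (32.4 CPM) in control and 43 UMIs (17.3 CPM) in LPS macrophages, a ratio of 0.533 (0.364 to 0.769). This was under 2-fold by summed UMIs and past it by the mean of the cells' own CPM, with a log2 ratio of -1.19. Its thinned share was 10.7% (7.32 to 14.9) of control and 4.14% (2.16 to 7.12) of LPS macrophages, and unthinned it was 27.4% and 11.7%. In cluster 0 it had 109 and 31 UMIs, or 1.20 and 0.420 CPM, a ratio of 0.349 (0.226 to 0.524), and in cluster 1 it had 27 and 8 UMIs with a ratio of 0.353 (0.139 to 0.800). The cluster 0 level was 3.71% of the macrophage level in control and 2.43% with LPS, above the macrophage markers, which reached at most 1.35% and 1.01%. The *Alox5ap* log2 ratio of -1.52 in cluster 0 became -3.33 once the top 1% of cells for this gene were dropped. Its 31 LPS UMIs lie in fewer cells than 1% of the 7030 LPS cells, so no LPS UMI remained. The value of -3.33 therefore stands on the limit of 3 UMIs and does not measure the ratio. The summed macrophage markers in cluster 0 were 29.0 CPM in control and 13.7 CPM with LPS, and their part in the lower *Alox5ap* of cluster 0 was not tested. *Alox5*, the 5-lipoxygenase itself, had 13 and 2 UMIs in macrophages and was too rare to compare.

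The other genes of the pathway were taken from a list of 47, of which 45 were in the gene list and *Akr1b8* and *Ptgdr* were not analysed here. In cluster 0, 4 of the 31 with enough UMIs were higher and 6 lower, beside 3.64% higher and 11.5% lower of all genes compared. Their median log2 ratio was -0.21, against -0.15 over all genes. Among receptors *Ptgir*, the prostacyclin receptor, went from 374 to 1284 UMIs there, a ratio of 4.21 (3.75 to 4.74), and it had 5.80 (4.45 to 7.67) in cluster 1. *Tbxa2r*, the thromboxane receptor, went from 273 to 43 UMIs in cluster 0, a ratio of 0.193 (0.137 to 0.267). It was also lower in cluster 1 (0.279), in cluster 2 (0.0727, 0.0145 to 0.226, from 46 and 3 UMIs) and in cluster 4 (0.344). *Alox15*, a lipoxygenase, had 108 and 14 UMIs in cluster 0, a ratio of 0.159 (0.0841 to 0.279), and 44 and 13 in cluster 8, a ratio of 0.313. Cluster 8 is far smaller, so its level was much higher. The mesothelial markers summed to 594 and 642 CPM there and to 26.5 and 19.1 CPM in cluster 0. The part of RNA from such cells in the *Alox15* counts of cluster 0 was not tested. *Slco2a1*, a prostaglandin transporter, had ratios of 2.82 (2.24 to 3.57) in cluster 0 and 3.22 (2.14 to 4.95) in cluster 1. The secreted phospholipase *Pla2g5* had 38 and 217 UMIs in cluster 0, a ratio of 7.01 (4.95 to 10.2), but its gene overlaps *Pla2g2a*, whose UMIs outnumber it by far, so the assignment of these reads is uncertain.

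In macrophages 1 of the 18 other pathway genes with enough UMIs was higher and 5 were lower, beside 4.73% higher and 16.2% lower of all genes compared. Their median log2 ratio was -0.39, against -0.35 over all genes. The median macrophage gene with at least 50 UMIs had a log2 ratio of -0.31, and the part of this shift in the lower calls was not tested. *Hpgds*, the hematopoietic prostaglandin D synthase, was the higher one, with 98 UMIs (31.5 CPM) in control and 185 UMIs (74.4 CPM) with LPS, a ratio of 2.37 (1.84 to 3.05). The lower ones were *Pla2g15* (79 and 17 UMIs, ratio 0.270), a lysosomal phospholipase, *Pla2g12a* (116 and 27 UMIs, ratio 0.292), *Pla2g7* (819 and 315 UMIs, ratio 0.482), which breaks down platelet-activating factor, *Fam213b* (ratio 0.497) and *Ptgr2* (ratio 0.466), a prostaglandin reductase. In cluster 3 none of 22 was past 2-fold in either direction, with *Pla2g4b* at 1.56 (0.964 to 2.53), *Pla2g15* at 0.538 (0.274 to 1.01) and *Pla2r1* at 0.656 (0.412 to 1.03). The calls in the remaining clusters were 3 higher and 3 lower of 23 in cluster 1, and 1 and 1 of 19 in cluster 2. They were 0 and 1 of 20 in cluster 4, and 1 and 0 of 17 in cluster 5. Clusters 7, 8 and 9 gave 2 and 0 of 13, 1 and 1 of 14, and 0 and 1 of 9. Over all genes compared, the shares higher and lower were 2.27% and 3.29% in cluster 3, 3.39% and 7.58% in cluster 1, and 3.06% and 7.07% in cluster 2. In clusters 4 and 5 they were 3.03% and 6.6%, and 4.86% and 6.74%. In clusters 7, 8 and 9 they were 5.17% and 6.79%, 3.58% and 4.38%, and 5.2% and 5.41%. *Ptges2*, another prostaglandin E synthase, was at 1.54 (1.26 to 1.88) in cluster 2, at 1.90 (1.37 to 2.68) in cluster 5 and at 2.03 (1.25 to 3.37) in cluster 7. *Ptgr1*, which inactivates prostaglandins and leukotriene B4, was lower by less than 2-fold in clusters 4, 5 and 7, with ratios of 0.622, 0.635 and 0.618.

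Over the 20 values of 10 clusters in the libraries, the genes with the most similar levels were named for each gene by Pearson's r of log2(CPM + 1) among 11303 genes, as a description, since the clusters of a library share its depth and its free RNA. *Ptgs2* was most like *Tnfaip2* (r = 0.956), *Zc3h12a* (0.952) and *Nfkb1* (0.926). *Ptges* was most like *Irak3* (0.928), *Cxcl1* (0.914) and *Tnfaip6* (0.909), and *Pla2g2a* like *Gfpt2* (0.928), *C1qtnf7* (0.915) and *Tnfrsf11b* (0.914). *Ptger2* followed *LOC681341* (0.983), *AABR07014512.1* (0.980) and *Fcgr2b* (0.975), and *Alox5ap* followed *Fcgr1a* (0.966), *Lyz2* (0.950) and *Ccl24* (0.942). *Ptgds* followed *Lamb3* (0.957), *Dsg2* (0.934) and *Cobl* (0.922). For *Pla2g4a* and *Ptgs1* the best values were lower, 0.828 with *Cdc42ep5* and 0.848 with *Tor4a*, and *Ptger4* had too few UMIs, 122, to be searched.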

How the data were processed

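The deposited values are raw counts of UMIs per gene and cell barcode, which the authors did not normalize, beside a table that gives every cell's cluster and type. The submitters' processing notes name Cell Ranger 2.2.0 and Seurat 2.3.4. The genome build and annotation are not given in the sources used here. Levels were summed over all cells with a cluster, which left out 10 cells. Cluster 10 was not compared.

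The members and lists were chosen with earlier results of these data known, and the motifs were chosen after the levels were seen. Counts were summed per cluster and library in Python 3.11.15 (numpy 2.4.6, scipy 1.17.1, pandas 2.3.3) and divided by the UMIs of the class. Intervals are exact at 95%: Clopper-Pearson for shares, Poisson for levels and conditional for ratios. They reflect counting alone. For a count of 0 the limit was set at 3 UMIs. Shares were taken after thinning each cell to 3000 UMIs without replacement, which left out 79 LPS cells with fewer. Every gene of the member list is named, and for other pathway genes up to 3 per cluster with at least 50 UMIs and the largest absolute log2 ratio, beside further genes that were called, which were picked after their values were seen. The 3 most similar genes per member had at least 200 UMIs. The procedure was tested on simulated data. Scrublet in scanpy 1.11.5 called 3 control and 1 LPS cells doublets (0.0260% and 0.00788%), which is too few for the caller to have worked. Dropping the 8% with the highest scores was tried instead, together with filters on mitochondrial share and depth, a second depth of thinning, other fold and UMI limits, scaling to the median gene, the mean of the cells' own CPM and an own clustering without the pathway genes (R 4.3.3, Seurat 5.3.0).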

Additional observations from a re-analysis of the deposited data

Results flagged for a closer look

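*Pla2g4a* differed in direction between clusters. Its ratio of LPS to control was 0.593 (0.404 to 0.857) in the macrophages of cluster 6 and above 1, with an interval that leaves out 1, in clusters 0, 1, 2, 4, 5, 7 and 8, the largest being 3.44 (1.51 to 8.79) in cluster 8. With 1 library per condition, the difference between these clusters was not tested. In clusters 2 and 4 its LPS level was within the range of the fibroblast markers. Its control level was above that range in both, with the interval of cluster 4 reaching into it. The part of fibroblast RNA in their ratios was not tested. The median gene of macrophages had a log2 ratio of -0.31, beside -0.75 for *Pla2g4a*, and the part of this general shift was not tested. The use of counting intervals to pick this gene was decided after the data were seen, since no gene was past 2-fold in opposite directions in different clusters. The summed macrophage markers of cluster 6, at 5680 CPM in control and 3805 CPM with LPS, were lower in the same direction as *Pla2g4a*, and their part in it was not tested.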

How the results depend on the processing

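No paired analysis was possible because the design has a single library on either side, and for the same reason no replicate could be left out. Of 465 recomputed log2 ratios of the 9 genes (59 gene and cluster pairs), 418 moved by less than the counting interval, 46 moved by more and 1 that had been past 2-fold reversed. In all, 21 crossed the 2-fold limit, 18 moved by over 1.5 times and 8 changed sign. Some of these values left out the 1% of cells with the most UMIs of a gene and rest on a count of 0 set to 3 UMIs. The reversal was *Ptges* in cluster 9, at -0.54 under the own clustering, which kept 16 of its 124 cells and added cells without a deposited cluster. The other changes of sign were in values under 2-fold, of *Ptgs1* in clusters 1 and 3 and *Ptgds* in clusters 1 and 2. That clustering had no match for cluster 7. In cluster 7 *Pla2g2a* was at a log2 ratio of 1.502 by the mean of the cells' own CPM and 1.75 without the 1% of cells with the most UMIs of the gene. The latter filter gave 6.08 for *Ptgs2* in cluster 6, and *Ptgds* in cluster 3 was at 0.57 without cells over 10% mitochondrial UMIs. At the 2-fold limit 4 genes were higher and 2 lower in cluster 0, and 4 were higher and 1 lower in cluster 6. At a 3-fold limit 2 genes were higher and 0 lower in cluster 0, 0 lower in cluster 6 and 0 lower summed over clusters. At 1.5-fold 3 were lower in cluster 6 and 8 summed over clusters, and with a minimum of 10 UMIs the sum was 9. The lower genes of cluster 6 numbered 2 by the mean per cell, 0 after scaling to the median gene and 2 without the 1% of top cells. For the other pathway genes, 3-fold left 2 higher and 3 lower in cluster 0 and 0 higher and 2 lower in cluster 6, and 1.5-fold gave 2 higher in cluster 6. The shares of all genes under these other limits and settings were not computed. These counts therefore have no background beside them and show only how the calls depend on the limits. Without thinning, the difference in shares of cells (LPS minus control, percentage points) was 5.77 for *Pla2g2a* in cluster 7, -12.9 for *Pla2g4a*, -21.9 for *Ptgs1*, 48.0 for *Ptgs2*, 24.0 for *Ptger2* and -15.7 for *Alox5ap* in cluster 6, -0.667 for *Ptger4* in cluster 0 and -2.53 for *Ptgds* in cluster 3, the last reversed in sign. Thinned to 1500 UMIs, the differences in cluster 6 were -5.14 for *Ptgs1*, 22.6 for *Ptgs2* and 23.9 for *Ptges*. The cause of these moves was not tested. *Ptger4* had 122 UMIs in all, which limits its precision.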

Other observations

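Cluster 10, with 16 control and 26 LPS cells, was left out of the comparisons. It had 109 and 114 UMIs of *Pla2g2a*, 0 and 7 of *Ptgs2* and 1 and 13 of *Ptges*.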
